A study of Mus musculus with 24 samples.

Results

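TM3 cells, an immortalised line from mouse Leydig cells (the testosterone-producing cells of the testis), were compared immediately after exposure to a nanosecond pulsed electric field (nsPEF) and immediately after sham exposure. The comparison was chosen by sample title and held 8 of the 24 arrays of the series: 4 of sham-exposed cells at 0 h (S0, sham replicates 1 to 4) and 4 of nsPEF-exposed cells at 0 h (E0, nsPEF replicates 1 to 4). The other 16 arrays were from sham-exposed and nsPEF-exposed cells harvested at 4 h and 24 h. All cells were unmodified TM3 cells that had been detached, washed and suspended in an Annexin V binding buffer in cuvettes with a 0.4 cm gap, 200 µl per sample, so the sham cells carried every step of the handling except the pulses. The nsPEF cells received 80 pulses of 60 ns at 5.5 kV, an electric field of 14 kV/cm, at 26.4 pulses per minute over 180 s. RNA was labelled with Cy3 from 100 ng of total RNA and hybridised to Agilent mouse arrays, 1 array per sample. The labels number the replicates without saying that they came from separate cultures, so the p-values measure the spread between these samples.

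A pulse of this length charges the plasma membrane and internal membranes before ions can screen the field, and it opens small pores through which ions, calcium among them, can pass. Calcium entry, swelling and membrane damage are known to induce immediate-early genes, whose transcription starts within minutes, whereas the levels of most stable mRNAs follow over hours. RNase P, the first of the machines met below, is a ribonucleoprotein whose RNA does the cutting.

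Each value below is a log2 signal relative to the 75th percentile of its own array, so a value of 0 equals that percentile, and a difference is the nsPEF mean minus the sham mean on this log2 scale. A probe was said to be well above background where the scanner software marked it so, and it entered the test if, in 1 or more of the 6 groups, 2 or more of 4 arrays passed that mark. Genes are described from probes well above background on all 8 arrays unless stated otherwise. A probe was called when the adjusted p of limma, a linear model fitted to all probes at once, was under 0.05.

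The 4 sham arrays read 57.6 to 59.6% of gene probes well above background and the 4 nsPEF arrays 52.7 to 57.1%, a difference of -3.93 percentage points (exact permutation test, two-sided, p = 0.0286, adjusted p = 0.0714 over 5 measures). The negative control spots lay closer to the scale in the nsPEF arrays, at -7.08 ± 0.308 (SD, n = 4) against -7.63 ± 0.134 with sham exposure (p = 0.0286 by the same exact test, adjusted p = 0.0714), and 0.0286 is the smallest p that 4 against 4 arrays allow. Sham samples occupied the first row of the slide and nsPEF samples the second row, so exposure and slide row cannot be told apart. Of 21 Leydig cell markers on the array, 13 were well above background on all 8 arrays, and 8 were so on none, Cyp11a1, Lhcgr, Hsd3b1 and Hsd17b3 among them, which are defining markers of the cell type. Of the 10 macrophage markers, 5 were well above background on all 8 arrays, and 3, Adgre1, Lyz2 and Ptprc, on none.

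Of 37684 probes tested, 39 were called (0.103%), of which 21 were higher (0.0557%) and 18 lower (0.0478%) after nsPEF. At an unadjusted p under 0.05 there were 3619 probes, 1784 higher and 1835 lower. The split of the calls moved with the scaling, to 7 higher and 19 lower after quantile normalization, to 29 and 12 when the percentile was taken over probes well above background on all 24 arrays, and to 608 and 19 when 5 spike-in RNAs set the scale, which moved the median of probes well above background on all 8 arrays from -0.02 to +0.13. When the fit held only the 8 arrays of 0 h, no probe was called by limma, although 4154 had an unadjusted p under 0.05. All calls below therefore rest on the spread estimated from the 24 arrays.

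The 8 arrays shared 27975 probes that were well above background on each of them, and these held 21 of the calls, 10 up and 11 down. Of the 10 that were higher, 1 had a gene symbol, and of the 11 that were lower, 8 had one. The 8 symbols were Rpph1, Rprl1, Rprl2, Rprl3, Scarna13, Cdc27, Golm2 and Csf1r. The 5 first of these are small structured RNAs, and 4 of them are annotated as RNase P RNA or RNase P RNA-like genes. Most small structured RNAs lack a poly(A) tail. Differences below are of array signal, and whether RNA recovery or labelling had a part in them was not tested.

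Rpph1 is the RNA component of RNase P, the ribonucleoprotein that cuts the leader off precursor tRNAs. Its 4 sham arrays read 0.61, 0.69, 0.77 and 0.38 and its 4 nsPEF arrays -0.09, -0.31, -0.32 and -0.49. The groups did not overlap, and the lowest sham array stood well over the highest nsPEF array. Rpph1 fell by 0.92 on the log2 scale (SE 0.14, 1.89-fold lower, limma adjusted p = 0.0147).

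Rprl1, Rprl2 and Rprl3 are RNase P RNA-like genes, and because their sequences resemble that of Rpph1, signal shared between these probes cannot be told apart. Rprl1 read -2.30, -2.36, -2.19 and -2.37 in the sham arrays and -3.01, -3.02, -2.97 and -3.12 in the nsPEF arrays. Rprl2 read -1.16, -1.06, -0.81 and -1.11 against -1.53, -1.71, -2.14 and -1.99. Rprl3 read -0.83, -0.87, -0.72 and -1.002 against -1.43, -1.36, -1.87 and -1.92. In each of the 3 all nsPEF arrays were below all sham arrays, with the tightest groups for Rprl1. The decreases were 1.65-fold for Rprl1 (-0.72, SE 0.13, limma adjusted p = 0.0375), 1.75-fold for Rprl2 (-0.81, SE 0.15, adjusted p = 0.0375) and 1.73-fold for Rprl3 (-0.79, SE 0.15, adjusted p = 0.0485).

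Scarna13 belongs to the small Cajal body RNAs, which guide the modification of spliceosomal RNAs. It read -1.52, -1.57, -1.51 and -1.46 in the sham arrays and -1.81, -2.21, -2.22 and -2.13 in the nsPEF arrays. Sham arrays lay within a narrow band and nsPEF replicate 1 stood nearest to it. Scarna13 fell by 0.58 (SE 0.10, 1.49-fold lower, limma adjusted p = 0.0265).

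**Figure D1:**
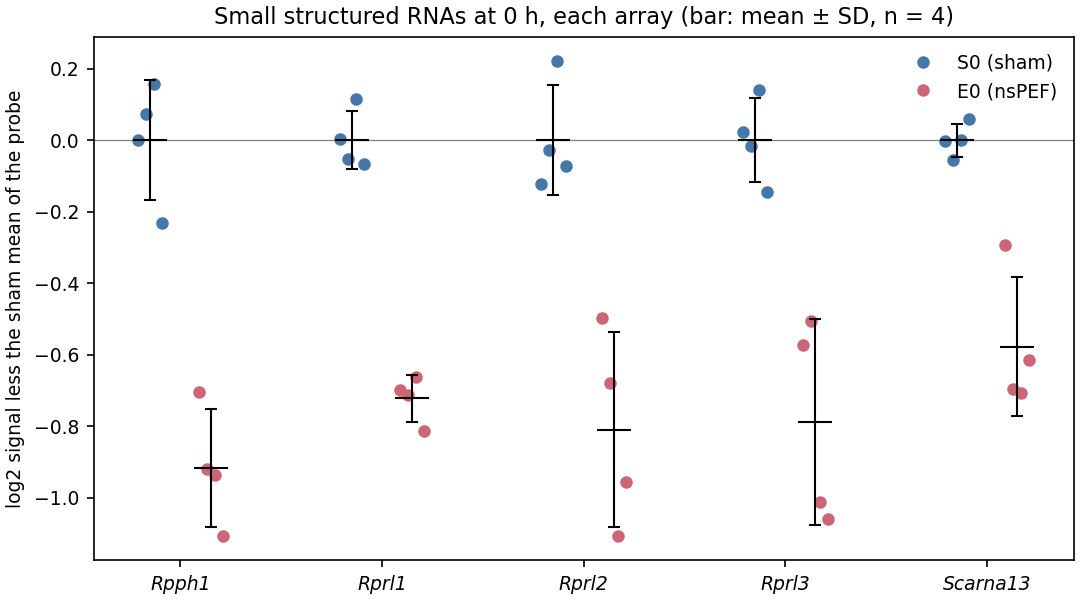
Each point is 1 array, plotted as its log2 signal less the sham mean of the same probe, for the 5 called small RNAs, with sham arrays in blue and nsPEF arrays in red and bars giving the mean ± SD of 4 arrays. All nsPEF points lie under all sham points of the same RNA, with mean differences from -0.58 for Scarna13 to -0.92 for Rpph1.

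The calls of these RNAs depended on single arrays. Leaving out sham replicate 2 or 3 took Rpph1 over the threshold (adjusted p = 0.0553 to 0.0627). Scarna13 was lost without any 1 sham array or without nsPEF replicate 3 (0.0562 to 0.0906). Rprl2 (0.0556 to 0.15) and Rprl3 (0.0584 to 0.172) were lost without any 1 sham array or without nsPEF replicate 3 or 4, and Rprl1 without any 1 of the 8 arrays (0.0537 to 0.148). With only the 8 arrays of 0 h in the fit the adjusted p was 0.105 for Rpph1, 0.0963 for Rprl1, 0.135 for Rprl2, 0.14 for Rprl3 and 0.129 for Scarna13. The 4 RNase P probes and Scarna13 stayed lower after nsPEF under every alternative run.

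A list of small structured RNAs on the array was then drawn up, after these values had been seen, so its counts are a description with no test. Of 27 such RNAs well above background on all 8 arrays, 15 were lower and 1 higher at an unadjusted p under 0.05, and 12 had all nsPEF arrays below all sham arrays. Over all 13407 genes on all 8 arrays, the shares at an unadjusted p under 0.05 were 5.36% lower and 1.78% higher, and 4.98% were lower and 1.29% higher without overlap. The median difference of the list was -0.24, against -0.03 over all genes. Taken per array, as the median deviation of the list from the means over the 8 arrays less that of all genes, it was 0.11, 0.15, 0.17 and -0.07 with sham exposure and -0.09, -0.04, -0.13 and -0.09 with nsPEF. Sham replicate 4 therefore lay among the nsPEF arrays, and the list as a whole did not separate the groups. At 4 h and 24 h the medians of the list were +0.03 and +0.11.

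All 5 RNAs of RNase P and of the related RNase MRP had an unadjusted p under 0.05, the fifth being Rmrp, the RNase MRP RNA, with -0.28 (SE 0.12, adjusted p = 0.436). All 6 spliceosomal RNAs and U3 RNAs, which serve in pre-mRNA and ribosomal RNA processing, were lower at that p, with a median of -0.28. Rnu1a1, Rnu1b1 and Rnu1b6 among them are all U1 genes, and signal shared between their probes cannot be told apart. Rnu1a1, a U1 gene, read 3.56, 3.70, 3.77 and 3.47 in the sham arrays and 3.36, 3.38, 3.29 and 3.32 in the nsPEF arrays. Its groups were apart, but the difference of -0.29 was not called (SE 0.11, adjusted p = 0.376). Rnu2-10, a U2 gene, differed by -0.30 (adjusted p = 0.393), Rnu12 by -0.19 (adjusted p = 0.393) and the U3 gene Rnu3b1 by -0.31 (adjusted p = 0.412).

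The remaining small RNAs were mixed. Among 11 small nucleolar and small Cajal body RNAs, 3 were lower and 1 was higher at an unadjusted p under 0.05, and 5 lay below 0. Snora23, which went up, read -3.55, -3.42, -3.47 and -3.26 against -3.32, -3.06, -2.81 and -2.79, a difference of +0.43 with overlapping groups (SE 0.12, adjusted p = 0.163). Rn7s1, the RNA of the signal recognition particle, differed by -0.28 (adjusted p = 0.269), Rn7sk, which holds back transcription elongation, by -0.11 (adjusted p = 0.73), and Terc, the telomerase RNA, by +0.03 (adjusted p = 0.993). Polr3g, a subunit of RNA polymerase III, differed by -0.29 (adjusted p = 0.211). The other subunits are not described here, and a link to the small RNAs was not tested.

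The nsPEF effect on these RNAs was then set beside that at the later times. The nsPEF effect on Rpph1 was +0.08 at 4 h and +0.54 at 24 h, on Rprl1 -0.07 and +0.43, on Rprl2 -0.13 and +0.41, on Rprl3 +0.07 and +0.48, and on Scarna13 +0.03 and +0.40. Tested as the effect at 0 h minus that at 24 h, all 5 differed (limma adjusted p = 0.00289 for Rpph1, 0.0123 for Rprl1, 0.0152 for Rprl2, 0.0139 for Rprl3 and 0.00396 for Scarna13), among 95 of 37684 probes called in that test (0.252%). Against 4 h none of the 5 passed the threshold, the adjusted p running from 0.0969 for Rpph1 to 0.317 for Rprl2. The difference from 24 h was lost for all 5 when replicate 2 or replicate 3 was left out of all 6 groups. Each time lay on a slide of its own, and the same 0 h arrays enter both the effect at 0 h and its difference from 24 h.

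**Figure D2:**
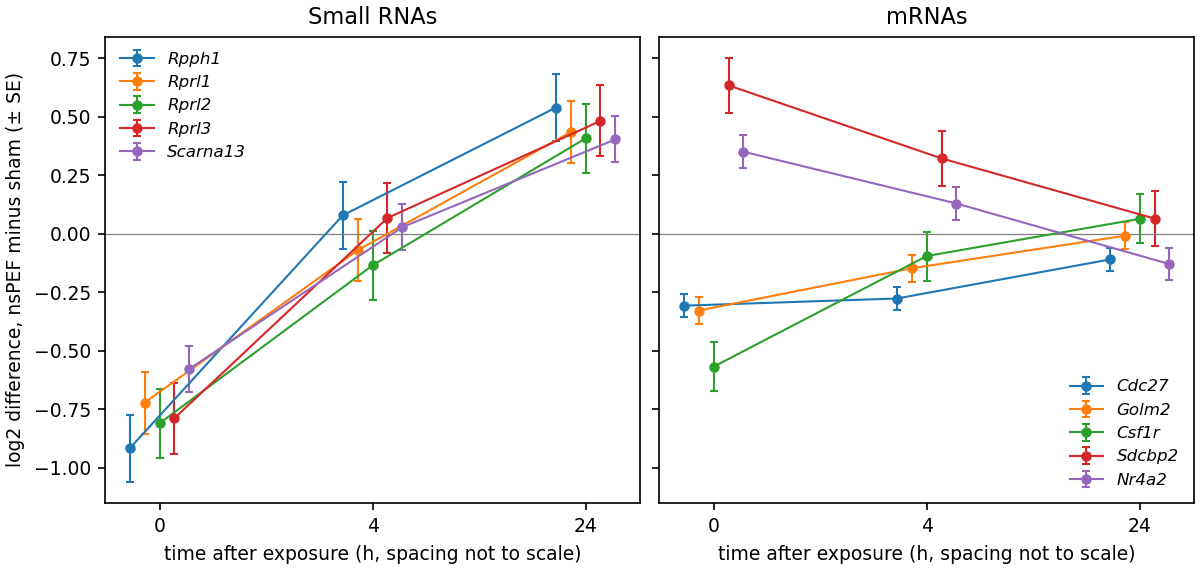
The log2 difference, nsPEF minus sham (± SE, limma, 24 arrays), is plotted at 0, 4 and 24 h for the 5 called small RNAs on the left and for Cdc27, Golm2, Csf1r, Sdcbp2 and Nr4a2 on the right, with times evenly spaced and not to scale. The small RNAs go from between -0.92 and -0.58 at 0 h to near 0 at 4 h and to between +0.40 and +0.54 at 24 h, while Cdc27 stays between -0.31 and -0.28 at 0 h and 4 h.

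Of probes designed to genome intervals, named on the array by coordinates of the mm9 build with no gene symbol, 3 were called lower on all 8 arrays, and the pair with the smallest p is described. The probe to the minus strand of chr10:66559716-66647841, an interval of 88126 bp, read 0.78, 0.57, 0.82 and 0.63 in the sham arrays and -0.01, -0.01, -0.18 and -0.54 in the nsPEF arrays. It fell by 0.89 (SE 0.10, limma adjusted p = 0.000743), and the call held without any 1 of the 8 arrays. The probe to the plus strand of chr19:12084892-12085332, an interval of 441 bp, read -0.85, -1.27, -0.80 and -1.07 against -1.70, -1.79, -2.15 and -1.91. It also fell by 0.89 (SE 0.13, adjusted p = 0.0118), and leaving out sham replicate 3 gave an adjusted p of 0.0507.

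For both intervals the effect at 0 h differed from the effect at 4 h, which was -0.03 on chromosome 10 and +0.19 on chromosome 19 (adjusted p = 0.0471 for each), and from the effect at 24 h, which was +0.22 and +0.47 (adjusted p = 0.00198 and 0.00289). Only 11 of 37684 probes were called in the test against 4 h (0.0292%). The remaining interval probe fell by 0.71 (SE 0.14, adjusted p = 0.0485). The annotation of these intervals in a mouse genome of that build was not analysed here.

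Of the protein-coding genes, 3 were called lower and 1 higher on probes well above background throughout. Cdc27, a core subunit of the anaphase-promoting complex, read 0.81, 0.68, 0.66 and 0.71 in the sham arrays and 0.51, 0.30, 0.41 and 0.42 in the nsPEF arrays. The groups were clear of each other, and the decrease was 1.24-fold (-0.31, SE 0.05, limma adjusted p = 0.0178). At 4 h the difference was -0.28. A second Cdc27 probe differed by -0.01 (adjusted p = 0.983), so the decrease was read by 1 of 2 probes. The call was lost without sham replicate 1 or 2 (adjusted p = 0.0627 to 0.0906).

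Golm2, a Golgi membrane protein, read 1.86, 1.74, 1.70 and 1.79 against 1.56, 1.41, 1.41 and 1.40. It fell 1.26-fold (-0.33, SE 0.06, limma adjusted p = 0.031). Csf1r encodes the receptor for colony stimulating factor 1, which macrophages use. Csf1r read -0.08, -0.21, 0.04 and -0.09 in the sham arrays and -0.40, -0.61, -0.61 and -0.99 in the nsPEF arrays, a decrease of 1.48-fold (-0.57, SE 0.10, adjusted p = 0.0375). Its other probe gave +0.16 (adjusted p = 0.793). The summed signal of the macrophage markers ran from 10.1 to 11.1 in the sham arrays and from 10.3 to 12.5 in the nsPEF arrays on the linear scale relative to the 75th percentile.

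Sdcbp2, which encodes syntenin-2, a PDZ protein that binds membrane phosphoinositides, was the gene called higher. It read -3.02, -3.24, -3.10 and -3.09 in the sham arrays and -2.64, -2.57, -2.21 and -2.50 in the nsPEF arrays. All nsPEF arrays lay above all sham arrays, with a rise of 1.55-fold (+0.64, SE 0.12, limma adjusted p = 0.0375). Golm2 (adjusted p = 0.0532 to 0.108), Csf1r (0.0562 to 0.15) and Sdcbp2 (0.0656 to 0.128) were each lost without any 1 sham array or without nsPEF replicate 3. Just short of the threshold were Retreg3, an endoplasmic reticulum autophagy receptor, at -0.29 and Slc22a13b at +0.56 (adjusted p = 0.0541 for both).

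Histone mRNAs of the replication-dependent clusters leaned the same way as the small RNAs. The list was drawn up after values had been seen, and it carries no test. None of its 41 genes on all 8 arrays was called, while 22 were lower and 0 higher at an unadjusted p under 0.05 and 18 were lower without overlap, with a median of -0.20. Over all genes 5.36% were lower at that p and 4.98% lower without overlap. Probes of near-identical histone genes can share signal, so the members are not separate measurements.

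All 5 linker histone genes of the H1 group had an unadjusted p under 0.05, as did 5 of 9 H2B, 4 of 7 H3, 5 of 8 H4 and 3 of 12 H2A genes. H2bc14 read 3.11, 3.14, 3.35 and 3.25 in the sham arrays and 2.88, 2.86, 2.79 and 2.90 in the nsPEF arrays (-0.36, SE 0.09, adjusted p = 0.139). H4c3 read 1.27, 1.19, 1.27 and 1.21 against 1.05, 0.95, 0.70 and 0.86 (-0.34, SE 0.09, adjusted p = 0.162). H1f4 read 4.38, 4.40, 4.501 and 4.48 against 4.33, 4.26, 4.16 and 4.09 (-0.23, SE 0.07, adjusted p = 0.215). In each of these the nsPEF arrays were all lower, but none passed adjustment over all probes.

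H2az1 and H3f3b, replacement histones named after values had been seen, differed by -0.00 (adjusted p = 0.999) and -0.01 (adjusted p = 0.986). Other replacement histones are not described here. At 4 h and 24 h the cluster list had medians of -0.07 and +0.14. The median over its 41 genes of the deviation from each gene's mean over the 8 arrays, less the same median over all genes, was 0.09, 0.03, 0.13 and 0.00 in the sham arrays and 0.02, -0.01, -0.19 and -0.17 in the nsPEF arrays, so nsPEF replicates 3 and 4 stood lowest and nsPEF replicate 1 lay among the sham arrays. Clustered histone mRNAs and most small structured RNAs lack a poly(A) tail. Whether RNA recovery or labelling had a part in these values was not tested.

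Probes to transcripts without a gene symbol were more often on the higher side. Probes were sorted by the kind of accession the array gives, and a probe was counted where the 4 nsPEF arrays did not overlap with the 4 sham arrays. Over all 27975 probes on all 8 arrays, 3.72% were higher and 4.21% lower in this sense. Among 1344 probes to full-length cDNA clones with no gene symbol, 17.2% were higher and 2.68% lower, and among 3816 probes to Ensembl transcripts 9.83% were higher and 1.81% lower. Among 18870 probes to RefSeq mRNAs, 1.16% were higher and 5.05% lower.

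The excess was present at matched signal. For probes with a mean signal between -2 and -1, 29.3% of the cDNA clone probes were higher without overlap, against 1.17% of RefSeq mRNA probes. In the middle rows of the array, 145 to 240, the shares were 13.6% and 0.66%. The median deviation of the cDNA clone probes from their means over the 8 arrays, less that of the RefSeq mRNA probes, was -0.04, -0.09, -0.09 and -0.07 in the sham arrays and 0.10, 0.06, 0.01 and 0.06 in the nsPEF arrays, with no overlap. The times were compared over probes well above background on all 24 arrays. Of the cDNA clone probes, 19% were higher without overlap at 0 h, 5.88% at 4 h and 5.69% at 24 h. Their median differences, in the same order, were +0.0755, +0.0939 and -0.0151. Those of the RefSeq mRNA probes were -0.0335, -0.046 and -0.0202. From 0 h to 4 h the share without overlap thus fell, while the median of the cDNA clone probes did not. The classes were compared after values had been seen, and the shares and medians are a description.

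**Figure D3:**
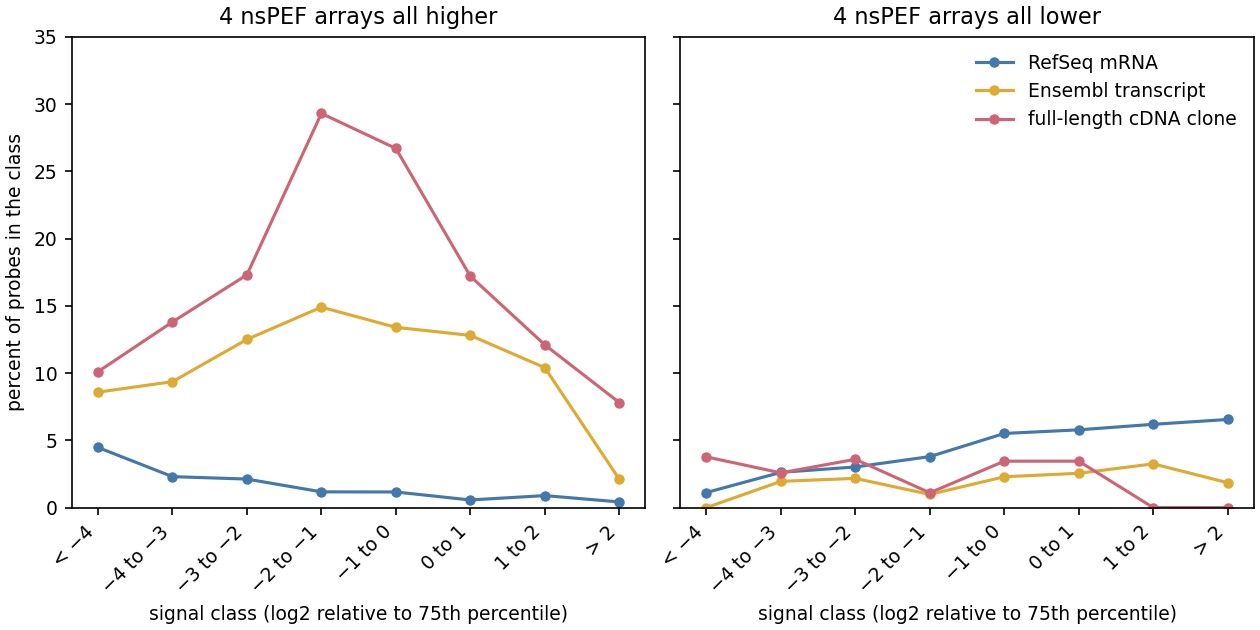
For probes well above background on all 8 arrays, the percent whose 4 nsPEF arrays all lie above (left) or all below (right) the 4 sham arrays is plotted by class of mean signal, for RefSeq mRNA, Ensembl transcript and full-length cDNA clone probes. The cDNA clone line lies above the mRNA line in every signal class on the left and reaches 29.3% for signals from -2 to -1, where the mRNA line is at 1.17%.

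Of the 10 probes called higher, 5 were to full-length cDNA clones. The pair without a symbol that had the smallest adjusted p is given here. BB283834 read -1.83, -1.86, -2.13 and -1.63 in the sham arrays and -1.02, -0.94, -0.46 and -0.77 in the nsPEF arrays, a rise of 2.09-fold (+1.06, SE 0.16, limma adjusted p = 0.0118), which without sham replicate 3 gave an adjusted p of 0.0507. ENSMUST00000211807 read 1.99, 1.88, 2.04 and 1.92 against 2.46, 2.49, 2.52 and 2.44, with very tight groups, a rise of 1.43-fold (+0.52, SE 0.08, adjusted p = 0.0149), which without sham replicate 2 gave an adjusted p of 0.0627. For both, the effect at 0 h differed from that at 24 h, which was -0.28 for BB283834 (adjusted p = 0.0139) and -0.36 for ENSMUST00000211807 (adjusted p = 0.00198).

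Named long noncoding RNAs had no common direction. Of a list of 15 on all 8 arrays, which holds Rmrp and Rn7sk as well and does not hold Airn, 1 was higher and 3 were lower at an unadjusted p under 0.05, 9 lay below 0, and the median was -0.05. Over all genes 1.78% were higher and 5.36% lower at that p, and 66% lay below 0. The 3 described here were chosen after values had been seen. Kcnq1ot1, the antisense RNA that silences genes of an imprinted cluster, was read by 4 probes. The brightest read 1.87, 1.95, 1.75 and 1.92 in the sham arrays and 2.34, 2.14, 2.24 and 2.26 in the nsPEF arrays. The 4 probes differed by +0.37, +0.64, +0.49 and +0.19, and 3 of them, in rows 2, 11 and 142, had no overlap between groups, but none was called (adjusted p = 0.216, 0.242, 0.141 and 0.734). Airn, the antisense RNA of the imprinted Igf2r locus, read -0.38, -0.35, -0.42 and -0.38 against -0.03, -0.08, 0.04 and 0.03, and was not called either (+0.37, SE 0.10, adjusted p = 0.159). Neat1, the scaffold RNA of paraspeckles, differed by -0.18 and -0.26 at 2 probes (adjusted p = 0.825 and 0.288).

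Immediate-early genes were at high levels in both groups at 0 h and differed little between them. None of the 9 AP-1 genes, which encode the Fos and Jun families of transcription factors, had an unadjusted p under 0.05, and their median difference was +0.01. Fos read 6.27, 6.27, 6.08 and 6.15 in the sham arrays and 6.13, 6.15, 6.07 and 6.17 in the nsPEF arrays (-0.07, SE 0.10, adjusted p = 0.928). Fosb differed by +0.06 (adjusted p = 0.939), Jun by +0.04 (adjusted p = 0.883) and Egr1, a zinc finger factor of the same response, by +0.06 (adjusted p = 0.91). In sham cells the level at 0 h was above that at 4 h by 7.29 for Fos, 5.89 for Fosb, 3.85 for Egr1 and 3.79 for Jun on the log2 scale, with each time on its own slide, so the arrays of 0 h compare exposed with sham cells at a time when these genes stood high in both.

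Within the early response factors, 17 genes gave a median of +0.06, with 14 above 0 and 2 higher at an unadjusted p under 0.05, Nr4a2 and Ier5. The share higher at that p over all genes was 1.78%. Nr4a2, an orphan nuclear receptor induced by calcium and cAMP signals, read 2.38, 2.39, 2.21 and 2.56 in the sham arrays and 2.68, 2.63, 2.74 and 2.91 in the nsPEF arrays at its brighter probe. A second probe read 2.08, 2.19, 2.19 and 2.25 against 2.37, 2.46, 2.44 and 2.65. Both probes had all nsPEF arrays above all sham arrays. The differences were 1.28-fold (+0.35, SE 0.07, adjusted p = 0.0549) and 1.23-fold (+0.30, SE 0.07, adjusted p = 0.0748), short of the threshold. At the brighter probe the effect at 24 h was -0.13, and its difference from the effect at 0 h passed the threshold (adjusted p = 0.0482); at the second probe it did not (adjusted p = 0.126).

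Atf3, a stress-induced repressor of the ATF family, read 1.79, 1.63, 1.81 and 1.73 in the sham arrays and 1.74, 2.07, 2.40 and 2.53 in the nsPEF arrays. Sham arrays were tight, whereas the nsPEF arrays ran from a sham-like level in replicate 1 to the highest in replicate 4 (+0.44, SE 0.12, adjusted p = 0.176). The same ordering of nsPEF arrays, with replicate 1 at the sham level and replicate 4 highest, was seen in Hbegf, Tnfaip3 and Ereg below.

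The promoters of Nr4a2 and Atf3 are shown because both genes belong to the response to calcium and cAMP and because both probes of Nr4a2 separated the groups. Capitals mark the core of the cAMP response element, TGACG or, on the other strand, CGTCA. Sequences run from 250 bases before to 50 bases after the transcript start and are from RefSeq on GRCm38.p6.
Nr4a2, chr2:57123954-57124253, minus strand: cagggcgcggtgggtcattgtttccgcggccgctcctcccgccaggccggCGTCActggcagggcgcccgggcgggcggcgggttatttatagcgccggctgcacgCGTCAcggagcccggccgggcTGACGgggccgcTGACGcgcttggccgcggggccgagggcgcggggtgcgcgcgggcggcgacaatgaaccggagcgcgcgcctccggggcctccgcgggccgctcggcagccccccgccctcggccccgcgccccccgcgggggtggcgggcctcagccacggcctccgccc
Atf3, chr1:191183284-191183583, minus strand: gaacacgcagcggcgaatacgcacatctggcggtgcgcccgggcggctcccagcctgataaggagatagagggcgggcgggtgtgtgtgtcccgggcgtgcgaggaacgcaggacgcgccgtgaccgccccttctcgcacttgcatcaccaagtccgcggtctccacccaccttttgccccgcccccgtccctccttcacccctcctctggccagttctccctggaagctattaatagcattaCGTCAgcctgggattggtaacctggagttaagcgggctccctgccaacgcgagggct

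The Nr4a2 window held 4 such cores on both strands together, a number reached by 0.231% of 32851 promoters of this length, and the Atf3 window held 1, as 20.8% of promoters do at the least. In neither window was TGACG followed directly by TCA, the full palindrome, in which the cores of both strands overlap and which 1.79% of promoters carry. A match of these letters is a description of the sequence and not a binding site.

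The ligands of the EGF receptor and their feedback genes gave a median of +0.24 over 6 genes, with 3 higher and 1 lower at an unadjusted p under 0.05. Among all genes 1.78% were higher and 5.36% lower at that p. Egf, which enters this median, differed by +0.41 (limma unadjusted p = 0.258). Hbegf, a membrane-anchored growth factor, read 0.93, 0.91, 0.85 and 1.01 in the sham arrays and 0.85, 1.20, 1.26 and 1.53 in the nsPEF arrays (+0.28, SE 0.09, adjusted p = 0.252). Ereg, the ligand epiregulin, read 1.62, 1.73, 1.37 and 1.53 against 1.59, 1.78, 1.94 and 2.20 (+0.31, SE 0.12, adjusted p = 0.332). In both genes the groups overlapped through nsPEF replicate 1. Errfi1, an inhibitor of the receptor, differed by +0.19 (adjusted p = 0.459). In sham cells Hbegf and Ereg stood lower at 0 h than at 4 h, by -1.99 and -2.28.

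Feedback genes of NF-kB and TGF-beta signalling held a few members with the same sign. Among 24 NF-kB targets, 3 were higher and 1 lower at an unadjusted p under 0.05, with a median of +0.01. The shares over all genes were 1.78% higher and 5.36% lower. Tnfaip3, a deubiquitinase that ends NF-kB signalling, read 1.54, 1.49, 1.52 and 1.57 in the sham arrays and 1.52, 1.81, 1.93 and 2.16 in the nsPEF arrays (+0.32, SE 0.11, adjusted p = 0.295). Nfkbia, the inhibitor that holds NF-kB in the cytoplasm, differed by +0.14 (adjusted p = 0.421), and Smad7, the inhibitory Smad, by +0.33 (adjusted p = 0.395). Of 14 circadian clock genes, 2 were higher at that p, Bhlhe40 at +0.26 (adjusted p = 0.266) and Per2 at +0.23 (adjusted p = 0.267).

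The lists of stress programmes given here held no call. None of 16 heat shock genes, 21 genes of the unfolded protein response, 22 Nrf2 antioxidant genes, 6 metallothioneins or 8 cold-inducible genes had an unadjusted p under 0.05, with medians of -0.01, -0.04, -0.03, -0.01 and +0.01. The heat shock gene Hspa1a was not tested, since its probe was well above background on too few arrays. Of 24 genes of the integrated stress response, 2 were higher and 1 lower at that p, and of 26 p53 targets 2 were higher and 1 lower. The shares over all genes were 1.78% higher and 5.36% lower. Gadd45g, a growth arrest gene, differed by +0.24 (adjusted p = 0.295), and Ddit4, an inhibitor of mTORC1 signalling, by +0.17 (adjusted p = 0.247). Slc5a3, the inositol transporter that accumulates an osmolyte, differed by +0.32 and +0.14 at 2 probes (adjusted p = 0.243 and 0.504).

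Genes of the respiratory chain had small negative differences, and for most of them the groups overlapped. Of 79 nuclear-encoded subunits of the 5 complexes, 77 had a negative difference, whereas 66.0% of all 13407 genes had one, and the median was -0.06 against -0.03. None was called, 4 were lower and 0 higher at an unadjusted p under 0.05, and 9 were lower without overlap. The shares over all 13407 genes were 5.36% lower at that p and 4.98% lower without overlap. The differences ran from -0.17 to +0.03. Counts of signs depend on the scale. With spike-in RNAs setting it, the median of probes well above background on all 8 arrays moved from -0.02 to +0.13. How many subunits lay below 0 on that scale was not counted. In complex I, the NADH dehydrogenase, 37 of 37 subunits were below 0 with a median of -0.07. Its median deviation per array, less that of all genes, was 0.05, 0.02, 0.03 and -0.01 with sham exposure and 0.00, 0.04, -0.06 and -0.08 with nsPEF, so nsPEF replicates 3 and 4 were the lowest and nsPEF replicates 1 and 2 lay among the sham arrays. In complex III nsPEF replicate 2, at 0.13, was the highest of the 8 arrays.

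Ndufa5 of complex I read 6.21, 6.31, 6.26 and 6.26 in the sham arrays and 6.17, 6.13, 6.02 and 6.06 in the nsPEF arrays (-0.16, SE 0.05, adjusted p = 0.235). Cox6b1 of complex IV, the cytochrome c oxidase, read 3.00, 3.02, 2.88 and 2.96 against 2.75, 2.82, 2.84 and 2.80 (-0.17, SE 0.05, adjusted p = 0.233). Uqcrc1 of complex III differed by -0.14 (adjusted p = 0.339), and it turned to +0.01 when spike-in RNAs set the scale. Subunits of one complex share regulation and the same 8 arrays, so their count is not a count of independent events. No probe was named for a gene of mitochondrial DNA, and unnamed probes were not searched for them.

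The mitochondrial ribosome had 7 of 78 genes lower and 0 higher at an unadjusted p under 0.05, where 5.36% of all genes were lower, with a median of -0.05, and the cytosolic ribosome 0 of 78 in either direction, with a median of -0.01. Mrps10, a protein of the small mitochondrial subunit, read 3.47, 3.62, 3.47 and 3.58 in the sham arrays and 3.33, 3.37, 3.33 and 3.30 in the nsPEF arrays (-0.20, SE 0.05, adjusted p = 0.138).

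**Figure D4:**
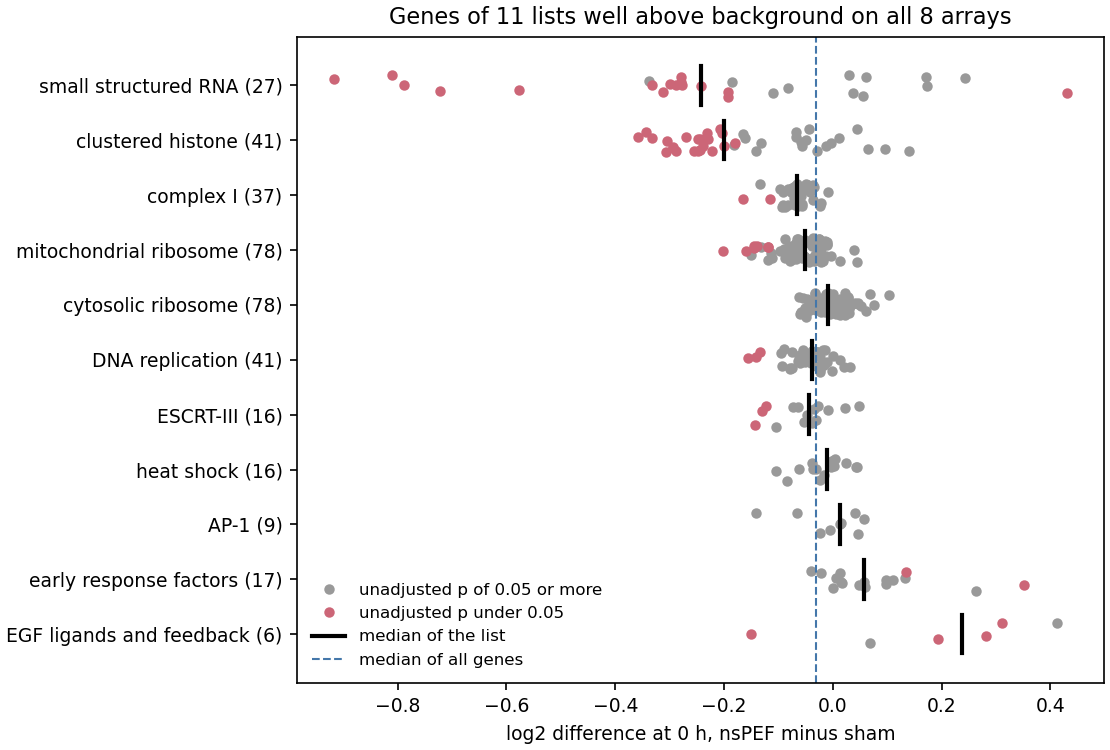
Each point is a gene well above background on all 8 arrays, placed at its log2 difference at 0 h (nsPEF minus sham) in the row of its list, with the number of genes in brackets, red for an unadjusted p under 0.05, a black bar at the median of the list and a dashed line at the median of all genes, -0.03. The small structured RNA and clustered histone lists lie to the left with medians of -0.24 and -0.20, both drawn up after values were seen, and the EGF list to the right with a median of +0.24.

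No gene of the DNA replication or mitosis lists was called on its brightest probe, and Cdc27, called lower above, is in neither list. Of 41 DNA replication genes 3 were lower and 0 higher at an unadjusted p under 0.05, with a median of -0.04, and of 35 mitosis genes 3 were lower and 0 higher, with a median of -0.05, counts close to the 5.36% lower and the median of -0.03 over all genes. Mcm10, which helps to start replication forks, differed by -0.16 (adjusted p = 0.331), and Plk1, a kinase of mitotic entry, by -0.18 (adjusted p = 0.216). Bcl2l1, the anti-apoptotic member of the Bcl2 family, read 4.54, 4.48, 4.36 and 4.57 in the sham arrays and 4.32, 4.15, 4.32 and 4.33 in the nsPEF arrays at its brightest probe (-0.21, SE 0.05, adjusted p = 0.127).

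Gene groups that act on the damaged plasma membrane held no call. Of 18 annexin and membrane repair genes 1 was higher at an unadjusted p under 0.05, where 1.78% of all genes were higher. It was Ahnak, a large scaffold protein under the membrane, at +0.16 (adjusted p = 0.482), and the median of the list was -0.07. Anxa2 read 6.92, 6.96, 6.85 and 6.84 against 6.86, 6.89, 6.80 and 6.70 (-0.08, SE 0.07, adjusted p = 0.793). Of 16 ESCRT-III and Vps4 genes, which pinch off damaged membrane, 3 were lower, where 5.36% of all genes were lower at that p. These were Chmp6 at -0.14, Vps4b at -0.13 and Ist1 at -0.12 (adjusted p = 0.443, 0.332 and 0.376). All 3 turned to between +0.01 and +0.03 on the spike-in scale.

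Of 24 genes of calcium stores and calcium signalling 3 were lower at that p, as were 5.36% of all genes. Calm3, a calmodulin gene, read 3.45, 3.50, 3.41 and 3.45 in the sham arrays and 3.36, 3.31, 3.33 and 3.23 in the nsPEF arrays (-0.15, SE 0.05, adjusted p = 0.287), a difference that was +0.01 on the spike-in scale. Nfatc3, a calcium-responsive transcription factor, differed by -0.17 (adjusted p = 0.32). None of 10 caveolae genes had an unadjusted p under 0.05.

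Steroidogenic genes did not change by the test. Star, the transporter that brings cholesterol to the inner mitochondrial membrane, read -3.47, -3.81, -3.58 and -3.91 in the sham arrays and -3.61, -3.58, -3.32 and -3.25 in the nsPEF arrays (+0.25, SE 0.14, adjusted p = 0.592). Cyp17a1, the enzyme that makes androgen precursors, read 1.71, 1.61, 1.98 and 1.42 against 1.52, 1.73, 1.09 and 1.10 (-0.32, SE 0.16, adjusted p = 0.531). Of the 13 Leydig cell markers tested, 2 were lower at an unadjusted p under 0.05, where 5.36% of all genes were lower. The median of the markers was -0.03, the same as over all genes. Their summed signal, on the linear scale relative to the 75th percentile, ran from 86.6 to 90.8 in the sham arrays and from 82.9 to 85.8 in the nsPEF arrays, so all nsPEF arrays were lower. The median deviation of the markers per array, less that of all genes, overlapped between groups. It ran from -0.02 to 0.03 with sham exposure and from -0.06 to 0.03 with nsPEF. In such bulk samples fewer cells of a type and less RNA per cell cannot be told apart.

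The 10 genes with the largest positive difference among symbols well above background on all 8 arrays without overlap of the groups were Ccdc141, Vmn2r97, Il3ra, Cldn20, Ppp1r32, Sec31b, Mbtd1, 9430078K24Rik, Capn5 and Klra1. None was called (adjusted p = 0.107 to 0.459). Of the 10 probes, 6 lay in the first 8 of 384 rows, those of Ccdc141, Vmn2r97, Cldn20, Sec31b, Mbtd1 and 9430078K24Rik. Cldn20, a claudin of tight junctions, read -3.58, -3.53, -3.22 and -3.37 in the sham arrays and -2.64, -2.27, -0.78 and -3.17 in the nsPEF arrays, with 1 array far above the others. For Ccdc141, Mbtd1 and Capn5 the brightest probe of the gene differed by -0.08, +0.04 and +0.04. Klra1, a natural killer cell receptor, in row 117, read -2.61, -2.37, -2.98 and -2.57 against -1.58, -1.52, -2.19 and -1.69, with all nsPEF arrays higher (+0.89, SE 0.21, adjusted p = 0.107).

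The 10 with the largest negative difference were Obox1, Atp2a3, Zfp444, Rpph1, Rprl2, Rprl3, Hk3, Rprl1, Pstpip2 and Vmn2r29. Beside the RNase P genes none was called (adjusted p = 0.0748 to 0.383). Obox1, Atp2a3 and Zfp444 lay in rows 384, 382 and 373, and the brightest Zfp444 probe differed by -0.05. Pstpip2, which binds curved membranes and actin, in row 128, read -2.89, -2.98, -2.68 and -3.12 in the sham arrays and -3.52, -3.52, -3.65 and -3.62 in the nsPEF arrays (-0.66, SE 0.14, adjusted p = 0.0748).

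Place on the array moved with the difference of dim probes. Among tested probes not well above background on all 8 arrays, the median difference was +0.40 in rows 1 to 48 and -0.25 in rows 337 to 384, while among probes well above background on all 8 arrays the medians of 8 bands of rows lay between -0.06 and +0.01. Of the called probes, 18 were among the dim ones, and 7 of these had a symbol.

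**Figure D5:**
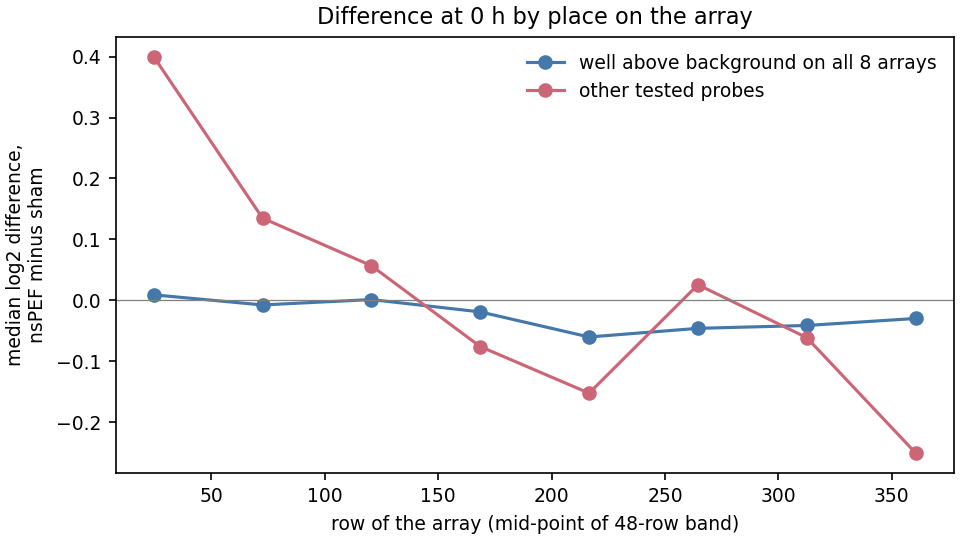
The median log2 difference at 0 h, nsPEF minus sham, is plotted for 8 bands of 48 rows each, from the first to the last of 384 rows, for probes well above background on all 8 arrays (blue) and for the other tested probes (red). The red line goes from +0.40 in the first band to -0.25 in the last, with +0.03 in rows 241 to 288, and the blue line stays between -0.06 and +0.01.

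Of these 7, Rtl3, in row 57, was well above background on 0 of 4 sham and 3 of 4 nsPEF arrays and at least 3.28-fold higher (adjusted p = 0.0265), and Tcp10c, in row 5, on 0 and 3 and at least 4.47-fold higher (adjusted p = 0.0344). These bounds set the nsPEF mean against the lowest signal counted as well above background on the sham arrays. Plin4, a lipid droplet protein, in row 36, was well above background on 4 of 4 sham and 0 of 4 nsPEF arrays and at least 1.23-fold lower (adjusted p = 0.0485). The call of Rtl3 was lost without sham replicate 1, 2 or 3 or nsPEF replicate 1 (0.0518 to 0.0882), and that of Tcp10c without sham replicate 1, 2 or 3 or nsPEF replicate 3 (0.0578 to 0.108). Plin4 was lost without any 1 array other than nsPEF replicate 4 (0.0518 to 0.174). The bounds hold only for the scanner's background subtraction: with normexp correction the differences were +0.46 for Rtl3, +0.76 for Tcp10c and -0.12 for Plin4, and none was called.

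Myh11, smooth muscle myosin, in row 3, was well above background on 3 of 4 sham and 4 of 4 nsPEF arrays and rose by +2.28 (adjusted p = 0.0363). Evi2a, in row 5, rose by +2.86 (adjusted p = 0.0368) with nsPEF replicate 4 dropped as a marked spot. Naa60, an acetyltransferase, in row 220, was well above background on 4 sham arrays and 1 nsPEF array and fell by 0.60 (adjusted p = 0.0375), while its brightest probe differed by -0.13 (adjusted p = 0.636). Myh11 and Evi2a were lost without any 1 sham array or without nsPEF replicate 1, and also without nsPEF replicate 3 or 2 (0.056 to 0.108 and 0.0656 to 0.124). Naa60 was lost without any 1 sham array or nsPEF replicate 1 or 2 (0.0627 to 0.158). Myh11 was called under 9 of 25 alternatives, Evi2a under 11 of 25 and Naa60 under 9 of 24. Under these their differences came as near to 0 as +0.63, +1.30 and -0.13. None of them was called with normexp correction, and Myh11 and Naa60 were not called when centred by row and signal.

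Tnf, the cytokine, was called at a probe in row 296 that was well above background on none of the 8 arrays (adjusted p = 0.0265), so no fold is given, and its brighter probe, well above background on all 8, read -2.70, -2.68, -2.36 and -2.71 against -2.65, -2.68, -3.13 and -2.63 (-0.16, adjusted p = 0.875). The call was lost without sham replicate 1, 2 or 3 or nsPEF replicate 3 (0.0562 to 0.0944). The probe with the smallest adjusted p of all, an Ensembl transcript in row 380 without a symbol, was well above background on 3 sham and 0 nsPEF arrays, with 1 sham spot dropped, and was at least 5.94-fold lower (adjusted p = 5.75e-08).

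Several genes that the study names for its arrays were at or near background at 0 h. Zfp750, in row 2, Cacng5, in row 4, and the tested Piezo2 probe, in row 170, were well above background on none of the 8 arrays, and the tested probe of Cntn4, in row 6, on 1. None of these had an adjusted p under 0.5. The paper names Cacng5, Cntn4 and Piezo2 among genes higher at 4 h, a later time than this comparison. It names Zfp750 as dependent on treatment, with QRT-PCR at 0, 4 and 24 h.

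The comparison at 0 h was set against those at 4 h and 24 h, which used other arrays. The 11 probes that differed from 4 h included 4 of the 39 calls. The 95 that differed from 24 h included 15 of them, 11 of which were well above background throughout. Among the former was Chac1, a glutathione-degrading enzyme of the integrated stress response, with -0.13 at 0 h and +0.43 at 4 h (adjusted p = 0.0352 for the difference). The calls at 0 h and these differences share the 0 h arrays, so the overlap is a count and not a second line of evidence.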

How the data were processed

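Total RNA of 24 samples was labelled with Cy3, and each of the 8 samples at 0 h was read on 1 Agilent array of 62976 spots. The deposited intensity values are the background-subtracted signals of Agilent Feature Extraction 12.0, 1 array per sample, with no scaling between arrays. The authors' log2 values, shifted to the 75th percentile and centred on the median of each probe, were an alternative. The number of arrays limits the precision. Samples were grouped by title.

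Here log2 of the processed signal, less each array's 75th percentile over gene probes, was averaged over spots of a probe after dropping marked outlier and nonuniform spots, and fitted with limma 3.58.1 (R 4.3.3) to 6 group means over 24 arrays, with Benjamini-Hochberg adjustment over 37684 probes. Accessions were named through RefSeq (34566 of 35647 matched), and other probes stayed unnamed. A gene in a list was read by its brightest tested probe. Named were called probes with a symbol, the 10 highest and 10 lowest, members of lists by unadjusted p, genes named by the study and defining genes. A further set (small RNAs, histones, long noncoding RNAs) was named after values were seen. Members and lists were chosen with earlier results of these data known. Alternatives covered scaling, background correction, filters, samples, weights, the replicate block and place on the array. The code was tested on simulated data. Replicate arrays correlated at 0.9932 to 0.9971 over probes, and none held identical values. A gene withheld for evaluation is not reported here.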

Additional observations from a re-analysis of the deposited data

Results flagged for a closer look

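In 3 of 70 groups of 4 arrays, 1 array stood apart from the other 3 by its gap over the range of the group (Dixon's ratio), where chance gives about 1 in 20 groups. These were Egr1 in the sham arrays (0.858), Fosb in the nsPEF arrays (0.831) and Golm2 in the nsPEF arrays (0.948), where replicate 1 read 1.56 and the others 1.40 to 1.41.

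The nsPEF effect at 0 h differed from that at 24 h by limma's interaction test for all 5 called small RNAs, by -1.457 for Rpph1, -1.157 for Rprl1, -1.218 for Rprl2, -1.271 for Rprl3 and -0.981 for Scarna13. It differed by -1.105 for the chromosome 10 interval, -1.358 for the chromosome 19 interval, 1.337 for BB283834, 0.875 for ENSMUST00000211807 and 0.481 for Nr4a2. Against 4 h, the chromosome 10 interval differed by -0.863 and the chromosome 19 interval by -1.078. Times lay on different slides, and the part of the slide in these differences was not tested.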

How the results depend on the processing

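The 39 calls at 0 h became 627 on the spike-in scale, 8 with normexp background correction, 3050 with no filter, 21 among probes well above background on all 8 arrays alone, 0 with only the 8 arrays of 0 h (4154 at an unadjusted p under 0.05), 17 without moderation, 250 with array quality weights and 13 with 1 probe per gene. Leaving out replicates gave 6 to 109. The 11 differences from 4 h became 6 on the spike-in scale, 2 with normexp, 4 with no filter, 0 on all 8 arrays alone, 3 with marked spots kept, 1 with the authors' values, 6 when centred by row and signal and 5 without moderation, and 1 to 17 without replicates. The 95 differences from 24 h became 1095, 10 and 56 on the spike-in scale, with normexp and with no filter, 2874 with weights, and 20 to 189 without replicates. The cause was not tested, apart from the fewer probes or arrays that some settings hold.

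The deviations of arrays with the same replicate number correlated at 0.093, -0.045, -0.113 and 0.229. These values cannot show whether such arrays came from the same cells. The paper states that, adhesion aside, each biological replicate was assayed in parallel from a shared cell suspension. The main fit took no account of such a pairing. With the replicate block, 72 probes were called at 0 h, 27 of them among the 39, and 3 differed from 4 h. Of the named genes called, Cdc27, Golm2, Tcp10c, Evi2a and Plin4 were then not called, and Nr4a2 was.

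With normexp correction Rpph1 stayed called, while Rprl1, Rprl2, Rprl3, Scarna13, Cdc27, Golm2, Csf1r and Sdcbp2 did not.

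On the spike-in scale Uqcrc1 (0.0086), Vps4b (0.022), Ist1 (0.029), Chmp6 (0.0077) and Calm3 (0.0056) turned above 0. The median of the mitochondrial ribosome less that of all genes was -0.0216, and -0.0022 after quantile normalization. For DNA replication it was -0.0080, 0.0079 after quantile normalization, and -0.0209 to -0.0066 without replicates. The alternatives for transcript classes were chosen after seeing the data, and the share of cDNA clone probes higher without overlap, 17.2%, ran from 12.7 to 31.7% under them, against 0.66 to 13.8% for RefSeq mRNA probes. The number of arrays and signal near background limit all values for dim probes.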
